A study of Mus musculus with 24 samples.

Results

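Unheated wildtype cultures labelled 240 min were compared with unheated wildtype cultures labelled 30 min. These were 6 of the 24 arrays of the series, 3 with each label, and the arrays were taken by their labels. The comparison itself was chosen with earlier results of these data known. Both groups were mouse embryonic fibroblasts, the connective tissue cells that grow out of minced embryos. They came from day 13.5 embryos of C57BL6 parents that each carried 1 working copy of the gene for CHIP, had both working copies themselves, and were held at 37 °C in medium with β-mercaptoethanol. The study followed heat shock with and without CHIP, the ubiquitin ligase encoded by Stub1, and these arrays are its baselines. Its heated cultures were held at 43 °C, and means of the heated wildtype cultures are given for a few genes. Of 13486 genes or features tested, the 11655 on the autosomes are described here. A value is the log2 ratio of sample RNA in Cy5 over a common reference RNA in Cy3, so a difference of 1 is a 2-fold change against the same reference. Every difference is the 240 min label minus the 30 min label, over 3 arrays against 3, with its standard error (SE) and a p-value adjusted over all genes tested.

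Primary embryonic fibroblasts are a mixed population. Most cells make matrix such as collagens, lumican and decorin, and smaller numbers of macrophages, smooth muscle cells, muscle precursors, mesothelium and neural cells can come along from the embryo. Fibroblasts also keep the positional genes of the place they came from, such as HOX and limb factors, and they respond to density and serum through the cell cycle, sterol synthesis and chemokines. A difference between cultures in bulk RNA can be one of cell number or of RNA per cell, and the data do not separate the 2.

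Several measured facts bear on all results. All arrays labelled 30 min formed 1 scan set and all arrays labelled 240 min the other, and no slide held wildtype controls of both labels, so time label, scan set and slide cannot be told apart. On the 240 min arrays 46.6 to 48.6% of probes were well above background in Cy5, against 36.7 to 41.4% on the 30 min arrays. Arrays correlated at 0.972 to 0.988 within a label and at 0.891 to 0.917 between labels, and 0 pairs were identical. The columns of the authors' value table for these samples each matched the scanner file of the same replicate number and the other time label (correlation at least 0.9996, against 0.822 to 0.856 for the file of their own label). Under the labels of that table every direction given here for the wildtype controls would turn. The CHIP null columns were not matched in this way. Sex-linked RNA also differed. The Y-linked genes Eif2s3y and Ddx3y were well above background on all 3 arrays labelled 30 min and on none labelled 240 min, with measured differences of -1.81 and -1.47. Xist, made from the inactive X chromosome, was well above background on the 3 arrays labelled 240 min and on none labelled 30 min, with a measured difference of 1.49, while its 3 other probes gave 0.17 to 0.28. The 2 labels therefore held cells that differed in sex-linked RNA, and whether they were 1 culture sampled at 2 times is not stated in the labels. Rise and fall below therefore mean higher or lower under the 240 min label, and not a change followed over time in 1 culture. A difference against a group not well above background rests on a signal near background on that side.

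A large share of the genes differed between the labels. Of the 11655 autosomal genes, 7434 passed the limma test at an adjusted p of 0.05 (63.8%), 3182 higher at 240 min (27.3%) and 4252 lower (36.5%). With median centring of each array in place of loess the split turned, with 3355 higher and 2684 lower. The 3 arrays of one label did not overlap with the 3 of the other in 8193 genes (70.3%). Most differences were small. Only 1403 genes (12%) passed the test with a change over 1.5-fold, 446 of them higher (3.83%) and 957 lower (8.21%), and 53 and 166 were past 2-fold. The split over 1.5-fold also turned, to 1170 higher and 635 lower under median centring, and the scanner software's log ratio gave 1311 and 1030. The median difference was -0.03, and the median SE was 0.07. Medians by autosome ran from -0.09 on chromosome 7 to 0.05 on chromosome 13, so no autosome stood apart.

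The direction of the calls went with the level of a gene relative to the reference. Among 1222 genes with a mean log2 ratio below -1 on these 6 arrays, 83.8% were called lower at 240 min and 6.14% higher. Among 5607 genes between 0 and 1 it was 16.6% lower and 43.3% higher. The CHIP null controls of the same 2 scan sets showed the same gradient, with 79.7% of the genes below -1 called lower. With the log ratio of the scanner software, which adds no offset, 31.8% of these genes were called lower in the wildtype and 14.7% in the CHIP null. A gene far below the reference that was lower at 240 min thus shared its direction with most genes of that level. The counts over gene lists below are to be read beside these shares and those over all genes, 27.3% higher and 36.5% lower. The test of the difference between the 2 genotypes adds other arrays of the same scan sets and kept a smaller gradient. It called 7.2% of the genes below -1 more positive and 16.4% more negative in the wildtype, and 11.8% and 6.21% of those between 0 and 1. It is given beside the gene lists.

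**Figure D1:**
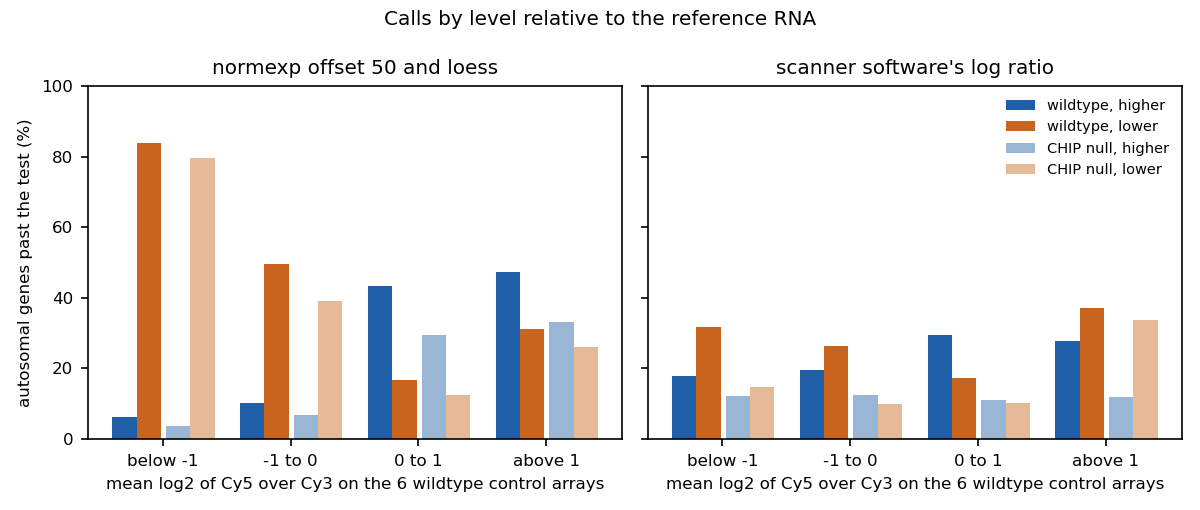
Share of autosomal genes past the test (y axis, percent) by mean log2 ratio to the reference on the 6 wildtype control arrays (x axis), in the wildtype (full colour) and the CHIP null (pale) and for 2 ways of making the ratio. With the offset the genes below -1 were called lower in 83.8% of cases in the wildtype and 79.7% in the CHIP null; with the scanner software's ratio these shares were 31.8% and 14.7%.

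The CHIP null controls give the same contrast of labels in other cultures. They were on other slides than the wildtype controls, so the difference between genotypes cannot be told apart from slide. In the CHIP null 5664 genes passed (48.6%), 2161 higher (18.5%) and 3503 lower (30.1%). For the difference between the genotypes 2198 genes (18.9%) were called, 1063 more positive in the wildtype (9.12%) and 1135 more negative (9.74%). With median centring 699 were called for the difference, and with the scanner software's log ratio 2717 passed in the CHIP null. Of the 3182 genes higher at 240 min in the wildtype, 1660 were also called higher in the CHIP null (52.2% of the wildtype list and 76.8% of the CHIP null list). Of the 4252 lower genes, 2774 were lower in both (65.2% and 79.2%). The log2 differences of the 2 genotypes correlated at 0.75 across the autosomal genes, which are not independent and share the scan sets. In 201 genes the genotypes were called in opposite directions and for the difference.

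**Figure D2:**
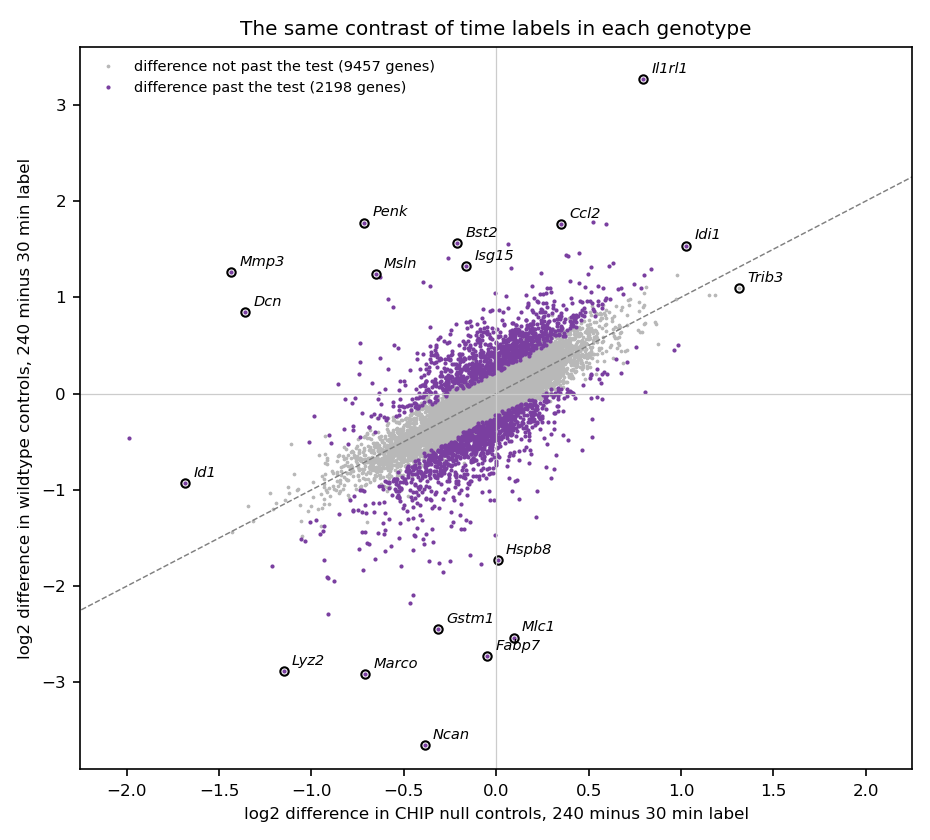
Log2 difference between the time labels in CHIP null controls (x axis) and wildtype controls (y axis), 1 point per autosomal gene, with the 2198 genes called for the difference in purple and the line of equality dashed. Ncan, Fabp7, Mlc1 and Hspb8 lie far below the line, and Il1rl1, Penk, Mmp3, Dcn and Bst2 far above it.

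Il1rl1 had the largest rise. It encodes ST2, the receptor of the alarmin interleukin-33, and lies at chr1:40404864-40465418 (GRCm38.p6). Its log2 ratio was 1.43, 1.39 and 1.11 on the arrays labelled 30 min and 4.45, 4.59 and 4.69 on those labelled 240 min. The groups did not overlap, and the difference was 3.26 (SE 0.08, adjusted p = 1.87e-22), a 9.61-fold change. Its 2 other probes gave 1.57 and 1.77. The CHIP null means were 3.80 and 4.60, so the wildtype cultures labelled 30 min were the low group, and heated wildtype cultures of the same labels had means of 1.35 and 4.70.

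The wildtype arrays labelled 30 min were also the lowest of the 4 control groups for 3 chemokines that draw monocytes or neutrophils. Ccl2, the monocyte chemoattractant MCP-1, read 1.49, 1.47 and 1.24 against 3.07, 3.14 and 3.28, a 3.39-fold rise. Its neighbour on chromosome 11, Ccl7, rose by 1.76 (SE 0.10), with 1.59 for its other probe. Cxcl5, a neutrophil chemokine, was not well above background on any array labelled 30 min and was at least 2.33-fold higher at 240 min, as the mean Cy5 signal over the higher of the probe's own signal and the lowest signal called well above background, a bound that is open to dye bias without a dye swap. The CHIP null had high levels of all 3 at both labels, at 2.88 and 3.23 for Ccl2 and at 2.51 and 2.57 for Cxcl5. Over the list of chemokines and cytokines 11 of 20 members tested were called higher and 6 lower, with a median of 0.19 against -0.03 for all genes. Among the 13 well above background on all 6 wildtype control arrays, 7 were higher and 5 lower. The difference between genotypes was called for 12 of the 20, 8 more positive in the wildtype.

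Among the other genes at the top of the ranking, Errfi1, an inhibitor of the EGF receptor, read -1.75, -1.82 and -1.70 against 0.01, 0.07 and -0.01, a 3.44-fold rise. Penk, the precursor of the enkephalin peptides, was -3.58, -3.74 and -3.48 against -1.89, -1.64 and -1.94. It rose by 1.77 while it fell by 0.71 in the CHIP null, but its other probe gave 0.06 in the wildtype. Serpina3g, a protease inhibitor, rose by 1.43 (SE 0.10). The 12 highest and 12 lowest genes had no overlap between labels on any of the 6 arrays, which the choice of these genes required.

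**Figure D3:**
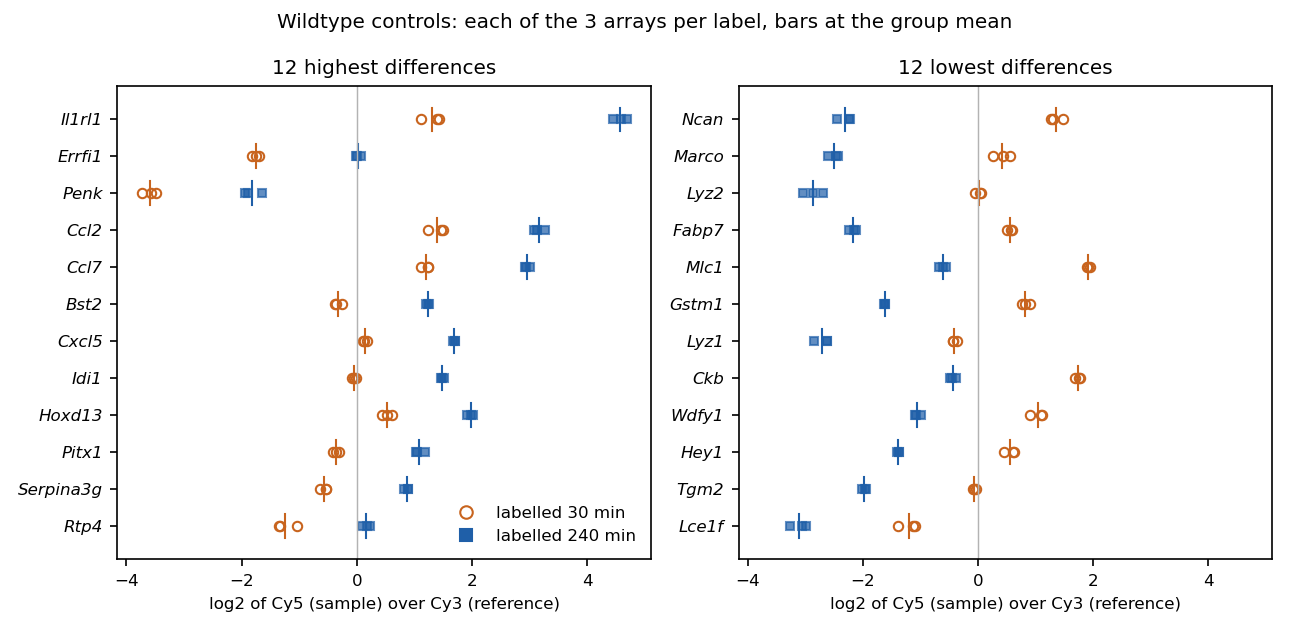
Log2 ratio of sample over reference (x axis) on each wildtype control array for the 12 genes with the highest and the 12 with the lowest difference, open circles for the 30 min label, filled squares for the 240 min label, bars at the means. The arrays of a label lie close together: Ncan lay at 1.27 to 1.48 against -2.44 to -2.22, and Il1rl1 at 1.11 to 1.43 against 4.45 to 4.69.

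Genes induced by interferon formed a second group that was higher at 240 min in the wildtype. Type I interferons act through factors such as STAT2 and IRF9, which bind a short element before their target genes. Bst2, which encodes tetherin, a protein that holds budding viruses at the membrane, read -0.26, -0.37 and -0.35 at 30 min and 1.21, 1.25 and 1.24 at 240 min. It rose 2.96-fold (adjusted p = 6.46e-18), and it fell by 0.21 in the CHIP null. Isg15, a ubiquitin-like protein, was -0.30, -0.34 and -0.30 against 1.0, 1.0 and 1.04, a 2.51-fold rise. Rtp4, another interferon-induced gene, rose by 1.41, and Irf9 and Stat2 by 0.72 and 0.50.

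Of 23 members of the interferon and antigen presentation list that were tested, 14 were called higher and 5 lower, with a median of 0.26. Of the 15 well above background on all 6 wildtype control arrays, 8 were higher and 5 lower. In the CHIP null 3 of the 23 were higher and 10 lower, and 14 were called for the difference, 12 of them more positive in the wildtype. The list's mean log2 ratio was -0.30 to -0.26 on the 30 min arrays and -0.08 to -0.04 on the 240 min arrays, and the groups did not overlap. H2-K1, a class I antigen presenting molecule, went the other way, with -1.15, -1.23 and -1.20 against -2.0, -1.95 and -1.97, a 1.71-fold fall. The list thus did not move as 1 block.

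The response element of these genes can be read in the RefSeq promoters. The interferon-stimulated response element, searched as GAAA, 2 bases of any kind and GAAA on either strand and with overlaps allowed, stood in the 250 bases before the start of 9 of the 21 tested list members that have a promoter in the table (42.9%), against 936 of 27025 genes in all (3.46%). Among the 12 members called higher 4 held it, and among the 5 called lower 1. The other members that held it were not called. Whether the element goes with the direction was not tested, here or for the elements below. The windows of 3 that were higher at 240 min are shown in lower case with the matches in capitals, 5′ to 3′ on the gene's strand, from the GRCm38.p6 build. Stat2 lies on the plus strand and the others on the minus strand, and in Stat2 the match is the reverse complement.
Isg15, chr4:156200845-156200926: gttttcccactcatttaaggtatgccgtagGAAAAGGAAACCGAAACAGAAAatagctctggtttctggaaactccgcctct
Bst2, chr8:71537557-71537632: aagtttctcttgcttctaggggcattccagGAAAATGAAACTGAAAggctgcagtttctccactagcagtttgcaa
Stat2, chr10:128270248-128270315: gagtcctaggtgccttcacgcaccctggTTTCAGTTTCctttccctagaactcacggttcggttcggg
Isg15 holds 3 overlapping matches and Bst2 holds 2. These are matches of letters and not measured binding.

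Sterol synthesis was higher at 240 min in both genotypes. Cells make cholesterol from acetyl-CoA through the mevalonate pathway, and the factor SREBP2 raises its enzymes when sterol is short. Idi1, the isomerase that makes the building block of isoprenoids, read -0.08, -0.05 and -0.02 against 1.46, 1.52 and 1.48, a 2.90-fold rise. Msmo1, which removes methyl groups from the sterol ring, rose by 1.23. Elovl6, which lengthens fatty acids, rose by 1.06, and Sqle, which encodes squalene epoxidase, by 0.97.

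In all 25 of 32 members tested were called higher and 1 lower, with a median of 0.66. In the CHIP null 25 were higher and 0 lower, with a median of 0.50 (limma on the same fit), and 8 were called for the difference, all more positive in the wildtype. The mean log2 ratio of the list lay at -0.18 to -0.15 at 30 min and 0.41 to 0.47 at 240 min in the wildtype, and at 0.11 to 0.15 and 0.55 to 0.59 in the CHIP null. From low to high the groups stood in the order wildtype 30 min, CHIP null 30 min, wildtype 240 min and CHIP null 240 min, without overlap. The sterol element TCACNCCAC was found before 1 of 21 members with a promoter, against 1.22% of all genes.

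Genes of the amino acid stress response were likewise higher in both genotypes. The factor ATF4 is translated when amino acids are short or the endoplasmic reticulum is stressed, and it raises transporters, tRNA synthetases and the serine pathway. Trib3, a pseudokinase target of ATF4, was 0.37, 0.54 and 0.36 against 1.46, 1.57 and 1.54. It rose 2.14-fold, and by 1.31 in the CHIP null. Mthfd2, a mitochondrial folate enzyme, rose by 0.99, the secreted Stc2 by 0.96, the transcription factor Cebpb by 0.92 and Atf4 itself by 0.41. Of 32 members tested 20 were called higher and 1 lower, with a median of 0.26 and 0.30 in the CHIP null, where 25 were higher. The members lay at a median level of 0.63, and 43.3% of all genes between 0 and 1 were called higher in the wildtype. The genotypes differed in 10 of the 32, 4 more positive and 6 more negative in the wildtype. The element TGATGNAA stood before 10 of 28 members (35.7%), against 3.91% of all genes. Among the members it stood before 6 of the 18 called higher and 1 of the 1 called lower. It is shown for Chac1, a glutathione-degrading enzyme, and Asns, asparagine synthetase, with the match in capitals.
Chac1, chr2:119351019-119351086, plus strand: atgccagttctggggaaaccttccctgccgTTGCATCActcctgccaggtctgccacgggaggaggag
Asns, chr6:7693210-7693262, minus strand: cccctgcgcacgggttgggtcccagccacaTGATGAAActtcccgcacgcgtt
Chac1 rose by 0.90 and Asns by 0.31 in the wildtype.

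Of the chaperones of the endoplasmic reticulum and related genes, 14 of 23 were higher and 2 lower, and 4 were more positive in the wildtype. The list lay at a median level of 0.63. Of all genes between 0 and 1, 43.3% were called higher and 16.6% lower. Hspa5, which encodes the chaperone BiP, rose by 0.65, against 0.19 in the CHIP null. Of 55 cytosolic ribosomal protein genes 23 were higher and 2 lower, with a median of 0.13, and 53 were higher with median centring. The difference between genotypes was called for 0 of the 55.

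Cell cycle genes separated the genotypes. Of 38 DNA replication genes 34 were called higher at 240 min and 0 lower, with a median of 0.39, and of 36 mitosis genes 30 were higher and 1 lower, with a median of 0.40. In the CHIP null 6 replication genes were higher and 13 lower, and 8 mitosis genes were higher and 15 lower. The difference was called more positive in the wildtype for 28 and 27 of them. Ccnb1, which encodes the mitotic cyclin B1, read 0.83, 0.77 and 0.67 against 1.71, 1.69 and 1.61, a 1.89-fold rise. Uhrf1, which keeps DNA methylation through replication, rose by 0.94, the helicase subunit Mcm4 by 0.79, thymidylate synthase (Tyms) by 0.63 and the spindle checkpoint gene Mad2l1 by 0.87.

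The mean log2 ratio of the mitosis list was 0.42 to 0.49 on the wildtype arrays labelled 30 min, and 0.865 to 0.874 at 240 min. The CHIP null lay at 0.94 to 0.98 and 0.92 to 0.95. The wildtype arrays labelled 30 min were thus the lowest of the 4 control groups. Not every member moved. The proliferation marker Mki67 read -0.70, -0.63 and -0.67 against -0.57, -0.56 and -0.64 and did not pass (adjusted p = 0.33), and Pttg1, which encodes securin, fell by 0.40. Ccnd2, which encodes the G1 cyclin D2, fell by 0.86, or by 0.55 to 0.78 with its 2 other probes. The E2F letters TTTCGCGC or TTTGGCGC stood before 5 of 30 replication genes (16.7%), against 0.759% of all genes, among them Uhrf1.
Uhrf1, chr17:56304098-56304165, plus strand: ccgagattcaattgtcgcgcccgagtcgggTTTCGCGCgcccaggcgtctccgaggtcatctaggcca

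**Figure D4:**
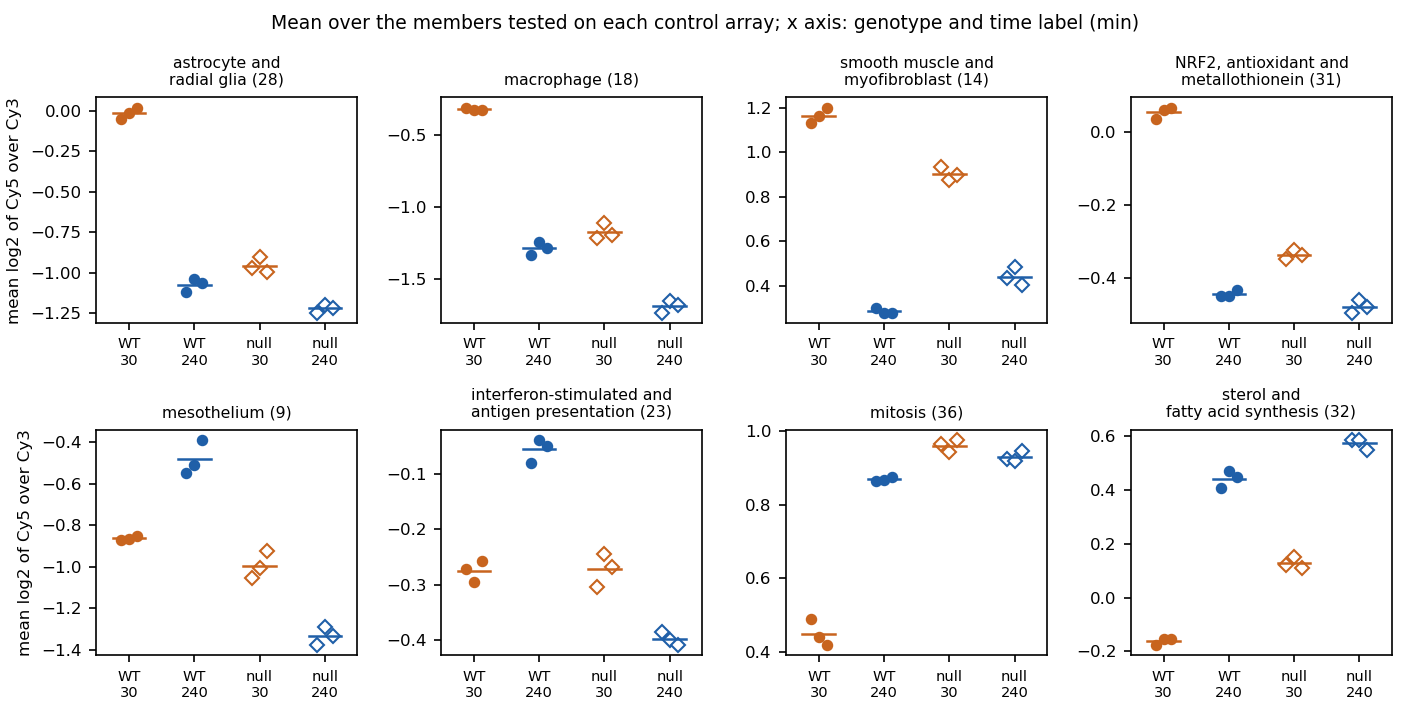
Mean log2 ratio over the members tested (number in brackets) on each control array, by genotype and time label, with bars at the group means and a separate y axis in each panel. The wildtype arrays labelled 30 min stand above the other 3 groups for the macrophage, smooth muscle and NRF2 lists and below them for mitosis and sterol synthesis. They also stand above for the astrocyte and radial glia list, which was put together after the values were seen. The wildtype arrays labelled 240 min are highest for the mesothelium and interferon lists.

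Genes of astrocytes and radial glia, the neural stem cells of the embryo, were among the lowest differences, beside macrophage and other genes. Ncan was the lowest. This gene encodes neurocan, a proteoglycan of the brain matrix, and lies at chr8:70093085-70120863. It read 1.48, 1.27 and 1.30 on the arrays labelled 30 min and -2.25, -2.22 and -2.44 on those labelled 240 min, a 12.6-fold fall (difference -3.65, SE 0.07, adjusted p = 5.91e-25). The CHIP null controls had means of -2.27 and -2.66, and the heated wildtype cultures of the same labels 1.83 and -2.30. Fabp7, the brain fatty acid binding protein of radial glia, was 0.51, 0.59 and 0.58 against -2.24, -2.12 and -2.14. Mlc1, a membrane protein of astrocyte endfeet, was 1.95, 1.89 and 1.92 against -0.67, -0.61 and -0.56. Both labels of the CHIP null stood near the low wildtype group, at -2.70 and -2.75 for Fabp7 and at -0.69 and -0.60 for Mlc1.

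Ckb, the brain form of creatine kinase, fell by 2.18 and its other probe by 1.74. Gfap, the filament protein of astrocytes, was not well above background on any array labelled 240 min, where it was lower by a measured 0.64 on the log2 scale. Olig1, a factor of glial precursors, was likewise not well above background there and fell by 0.71. A list of 28 tested genes of astrocytes and radial glia was put together after these values were seen, and its counts are a description: 26 were lower and 1 higher, with a median of -0.87, against -0.19 in the CHIP null, and 20 were more negative in the wildtype. The receptor Ntrk2, the folate enzyme Aldh1l1 and the proteoglycan Bcan fell by 1.76, 1.63 and 1.54. Gja1, which encodes connexin 43 of both astrocytes and fibroblasts, rose by 0.87. The mean of this list was -0.05 to 0.02 at 30 min and -1.12 to -1.04 at 240 min, against -0.99 to -0.90 and -1.25 to -1.20 in the CHIP null. Since this list was chosen with the values seen, its counts say nothing about neural markers at large. The part of these genes in the other results was not tested. The separate list for glia and neural crest had 7 of 10 members lower and 1 higher, or 4 and 1 with the scanner software's ratio. Of its members 4 were called for the difference, 3 more negative in the wildtype.

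Macrophage genes were also lower at 240 min. Marco, a scavenger receptor, read 0.56, 0.44 and 0.26 against -2.60, -2.46 and -2.43, a 7.55-fold fall. Lyz2, which encodes the lysozyme of myeloid cells, was 0.04, -0.06 and 0.06 against -3.03, -2.70 and -2.86, and its other probe fell by 0.56. Lyz1 fell by 2.29 and Adam8, a surface protease, by 1.23. All 18 macrophage markers tested were called lower, with a median of -0.60, where 36.5% of all genes were lower. The markers lay at a median level of -0.92 relative to the reference, 8 of them below -1. At such levels more genes were lower: 83.8% of all genes below -1 and 49.5% of those from -1 to 0. With the scanner software's ratio 15 of the 18 were called lower. The receptors Csf1r and Adgre1 (F4/80) fell by 0.76 and 0.94. For the CHIP null 16 of the 18 were lower, with a median of -0.47, and the difference was called for 5.

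The mean of the macrophage list was -0.33 to -0.31 on the wildtype arrays labelled 30 min and -1.33 to -1.24 at 240 min, and -1.21 to -1.11 and -1.73 to -1.65 in the CHIP null. In the heated wildtype cultures Marco stood at -1.16 and Lyz2 at -2.07 for the 30 min label, so that the 3 unheated arrays of that label were the high group. The other 8 of the 26 markers on the array, among them Ptprc (CD45), Itgam (CD11b) and Spi1, were not well above background on all arrays of any group and were not tested.

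Contractile genes of smooth muscle and myofibroblasts were lower at 240 min in both genotypes, and more so in the wildtype. Cnn1, which encodes calponin, read 3.27, 3.34 and 3.39 against 1.56, 1.52 and 1.55, a 3.46-fold fall, and fell by 0.52 in the CHIP null. Myl9, the regulatory light chain of myosin, fell by 1.73, the LIM protein gene Csrp1 by 1.31, the tropomyosin Tpm2 by 1.12 and smooth muscle actin (Acta2) by 0.96, or by 0.14 to 1.18 with its 4 other probes. Of 14 genes tested 13 were lower and 0 higher, with a median of -0.90, and of -0.46 in the CHIP null, where 12 were lower. The difference was called more negative in the wildtype for 10.

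Endothelial, liver, adipocyte and neuron markers lay below the reference and were mostly called lower. In the wildtype these were 9 of 9 endothelial, 7 of 7 liver, 6 of 7 adipocyte and 9 of 11 neuron markers, and in the CHIP null 9, 4, 6 and 10 of them. The genotypes were called different in 1, 0, 0 and 4. With the scanner software's log ratio 2 endothelial, 4 liver, 2 adipocyte and 2 neuron markers were called lower, and 0, 0, 2 and 4 higher. The median of the neuron list turned from -0.39 to 0.18, so no direction is given for it. Of 13 genes of the cornified skin layer, a list also added after the values were seen, 12 were lower with a median of -1.04, and 7 with the scanner software's ratio, and 6 were more negative in the wildtype than in the CHIP null. Lce1f, a late cornified envelope protein, read -1.39, -1.13 and -1.09 against -3.27, -3.06 and -2.99.

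Most tested markers of mesothelium, the lining of the body cavities, were higher at 240 min in the wildtype. Msln, which encodes mesothelin, read -2.11, -1.82 and -1.85 against -0.79, -0.67 and -0.60, a 2.36-fold rise, and fell by 0.65 in the CHIP null. Upk3b was not well above background at 30 min and was higher by a measured 0.74. The keratin Krt18 rose by 0.56. Of 9 markers 7 were higher and 2 lower, with a median of 0.52, against 0 higher and 5 lower in the CHIP null, and 7 were called for the difference. Only 5 of the 9 were well above background on all 6 wildtype control arrays. Of these 3 were higher and 2 lower, with a median of 0.33.

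Muscle markers divided. Among those that rose, Myl4, an embryonic myosin light chain, read -3.17, -2.92 and -3.01 against -1.82, -1.68 and -1.83. The acetylcholine receptor subunit Chrna1 rose by 1.02, or by 0.18 with its other probe, and the myogenic factor Myog by 0.94. Over the list 10 of 21 were higher and 7 lower, and median centring gave 9 and 3, the scanner software's ratio 11 and 4. The difference between genotypes was called for 9, 8 of them more positive in the wildtype.

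Patterning factors of limb and body wall were mostly higher. Hoxd13, the HOX gene of the hand and foot plate, read 0.43, 0.61 and 0.53 against 1.92, 1.99 and 2.02, with 0.39 for its other probe. Pitx1, the factor that sets hindlimb identity, rose from -0.40, -0.30 and -0.35 to 1.03, 1.05 and 1.18, a 2.72-fold rise. Twist2 and Foxf2, factors of dermis and of gut mesenchyme, rose by 1.31 and 0.85, while Msx2 fell by 0.94. Of 36 limb, body wall and patterning factors 23 were higher and 6 lower, and 17 were called for the difference, 14 more positive in the wildtype. Among the 23 factors well above background on all 6 wildtype control arrays, 14 were higher and 5 lower. The HOX list moved less, with 7 of 23 higher and 2 lower, a median of 0.07 and 4 more positive in the wildtype.

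Fibroblast identity genes were split with loess and mostly higher with median centring. Lum and Dcn, which encode the matrix proteoglycans lumican and decorin, lay far below the reference and rose. Lum read -4.88, -4.93 and -4.58 against -3.82, -3.09 and -3.86. Dcn read -4.07, -4.18 and -4.17 against -3.46, -3.11 and -3.32, and fell by 1.36 in the CHIP null. The chains of collagen I did not pass: Col1a1 was -1.21, -1.19 and -1.18 against -1.25, -1.17 and -1.21, and Col1a2 gave -0.01 from 2 arrays against 3. Fibronectin (Fn1) fell by 0.70, and vimentin (Vim) rose by 0.66. Of 19 fibroblast genes 8 were higher and 4 lower, while median centring gave 14 and 1 and the scanner software's ratio 11 and 4. Of these genes 6 were more positive and 5 more negative in the wildtype. Of 21 collagen chains 2 were higher and 11 lower, or 7 and 6 with median centring, and 9 were more negative and 2 more positive in the wildtype. The basement membrane chain Col4a1 fell by 0.78, and Col7a1, the anchoring fibril chain of skin, by 1.28. Mmp3, which encodes the protease stromelysin, rose by 1.26 in the wildtype and fell by 1.43 in the CHIP null.

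Detoxification genes were lower at 240 min in the wildtype. The factor NRF2 raises glutathione transferases, heme oxygenase and other antioxidant enzymes. Gstm1, a glutathione transferase, read 0.82, 0.90 and 0.76 against -1.62, -1.61 and -1.62, a 5.44-fold fall, and its other probe fell by 1.04. Hmox1, which encodes heme oxygenase, fell by 1.51, Aldh1a1, which makes retinoic acid, by 1.26 and Gstm2 by 1.18. Of 31 members 24 were lower and 2 higher, with a median of -0.42, or -0.17 with 13 lower under median centring. In the CHIP null the median was -0.13, and 18 were called more negative in the wildtype. Nqo1, a classical NRF2 target, read 1.42, 1.39 and 1.01 against 1.34, 1.13 and 1.35 and did not pass.

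Lysosome genes showed a like pattern. Ctsd, which encodes cathepsin D, was 0.95, 1.11 and 1.06 against -0.13, -0.10 and -0.14, and fell 2.23-fold. Ctsh, another cathepsin, and Psap, the precursor of the saposins, each fell by 0.97. Of 34 genes 22 were lower and 3 higher, with a median of -0.37 and -0.11 in the CHIP null, and 17 were called more negative in the wildtype. Median centring gave 16 lower and 4 higher, with a median of -0.16. The list lay at a median level of -0.27, and 49.5% of all genes from -1 to 0 were called lower in the wildtype. Lysosomal genes are shared by macrophages, whose markers moved the same way, and the part of those cells was not tested. The letters CACGTGAC, bound by the lysosomal regulator TFEB, stood before 8 of 24 members (33.3%), against 2.11% of all genes. Among the members they stood before 5 of the 16 called lower and 0 of the 1 called higher. One that held them was Lamp1, a lysosomal membrane protein that fell by 0.44.
Lamp1, chr8:13159103-13159160, plus strand: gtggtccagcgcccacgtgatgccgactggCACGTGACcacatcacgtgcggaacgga

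**Figure D5:**
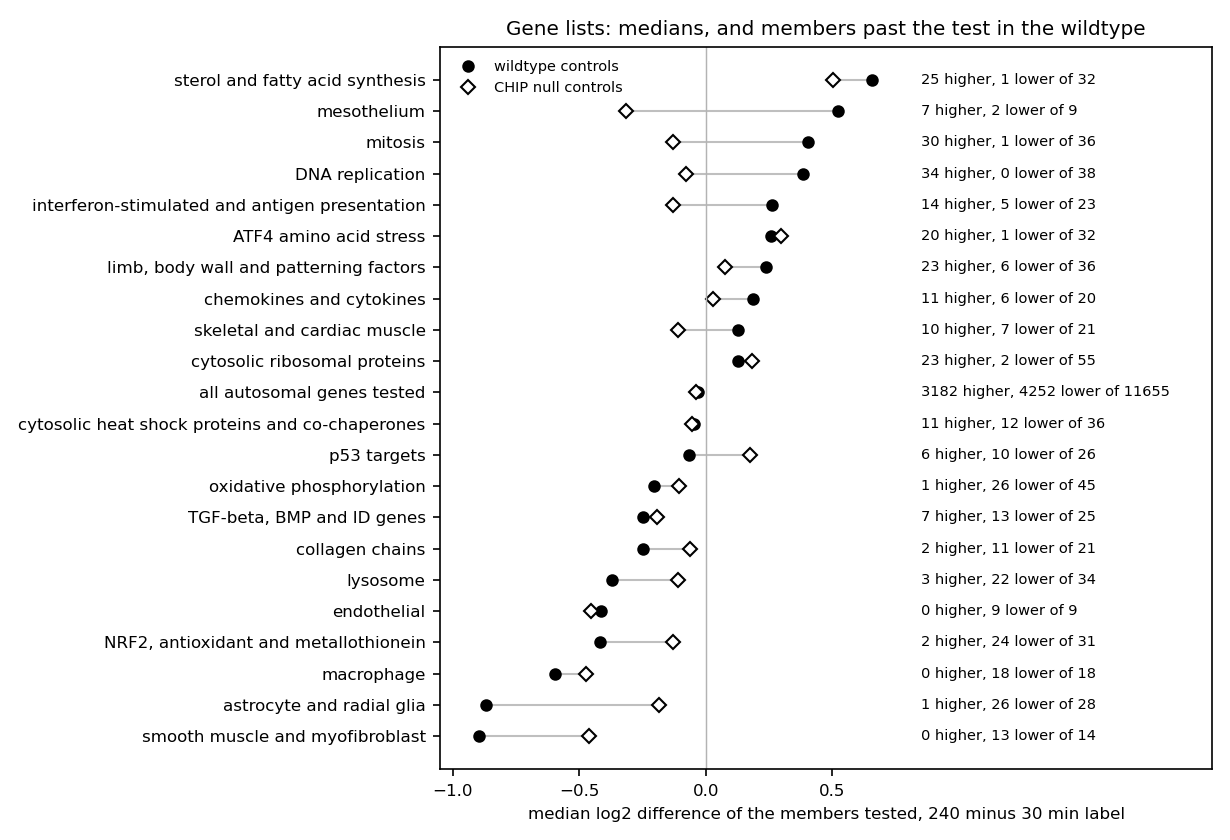
Median log2 difference of the members tested (x axis) for 21 gene lists and all autosomal genes, wildtype as filled circles and CHIP null as open diamonds, with the wildtype counts past the test at the right. The genotypes lie far apart for mesothelium (0.52 and -0.32) and mitosis (0.40 and -0.13) and close together for ATF4 (0.26 and 0.30) and endothelial genes (-0.42 and -0.46). The astrocyte and radial glia list was put together after the values were seen.

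The heat shock genes, which the heated arms of the study address, did not move as a group in these unheated cells. Of 36 cytosolic chaperone genes 11 were higher and 12 lower, or 16 and 6 with median centring, with a median of -0.05, and 8 were more negative and 1 more positive in the wildtype. The members with the largest differences were small heat shock proteins. Hspb8, a partner of the co-chaperone BAG3, read 0.48, 0.53 and 0.44 against -1.23, -1.25 and -1.25, a 3.31-fold fall, and did not pass in the CHIP null (0.01). Cryab, which encodes alpha B-crystallin, fell by 1.73, but by 0.21 with its other probe, and Hspb1 (HSP27) fell by 1.56. The HSP40 gene Dnaja1 rose by 0.56. Hspa1a, the inducible HSP70, was -0.74, -0.72 and -0.68 against -0.89, -0.93 and -0.85 and did not pass (SE 0.38, adjusted p = 0.70), although its arrays did not overlap. Its SE comes from the spread over all 24 arrays, the heated ones included. Neither did Hspa8, the constitutive HSC70, at -0.17. Hsf1, the heat shock factor, fell by 0.22, or gave 0.01 and 0.18 with its 2 other probes.

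The genes the study is named for differed little between the labels. Stub1, the gene for CHIP, read -0.24, -0.24 and -0.12 against -0.23, -0.18 and -0.24, and the CHIP null controls had means of -2.03 and -2.30. Daxx, a nuclear adaptor of cell death signalling, read -0.17, -0.23 and -0.16 against -0.24, -0.14 and -0.25. Trp53 fell by 0.28, but its other probe gave 0.54, so its direction is not settled. Of 26 p53 target genes 6 were higher and 10 lower, or 7 and 4 with median centring, with a median of -0.07. The CHIP null had 14 higher and 6 lower, and 7 were more negative and 1 more positive in the wildtype. Pmaip1, which encodes the death protein NOXA, was 3.17, 3.22 and 3.04 against 2.40, 2.35 and 2.40 and fell by 0.77, against a rise of 0.27 in the CHIP null. Cdkn1a, the cell cycle inhibitor p21, fell by 0.33.

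The TGF-beta, BMP and ID genes had 7 of 25 members higher and 13 lower, or 8 and 10 with median centring, with a median of -0.25, and of -0.19 in the CHIP null. The difference between genotypes was called for 8, 6 of them more positive in the wildtype. Id1, Id2 and Id3 encode inhibitors of differentiation that BMP signals raise. Id3 read 1.71, 1.94 and 1.95 against 0.97, 0.85 and 0.87, and fell by 0.97, and by 1.13 in the CHIP null. Id1 fell by 0.93 and Id2 by 0.75. The growth factor Tgfb3 fell by 0.99, from 2 arrays against 3, and by 1.07 in the CHIP null. Bmp4, a ligand of this pathway, rose by 0.68 in the wildtype and fell by 0.16 in the CHIP null.

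Genes of oxidative phosphorylation depended on the scaling. With loess 26 of 45 were called lower and 1 higher, and with median centring 0 were lower and 10 higher, so no direction is given for them. The difference between genotypes was called for 7, 6 of them more negative in the wildtype. Cox4i1, a subunit of cytochrome oxidase, fell by 0.65 with loess. Of the remaining genes at the bottom of the ranking, Hey1, a target of Notch signalling, read 0.63, 0.60 and 0.46 against -1.41, -1.37 and -1.37. Tgm2, a transglutaminase that crosslinks matrix, fell by 1.91, or by 0.33 to 0.47 with its 2 other probes. Wdfy1 fell by 2.09, while its 2 other probes gave -1.77 and 0.54. Igfbp2, an IGF binding protein, fell by 1.76, and did not pass in the CHIP null (-0.08). Where a gene changed by over 1.5-fold and had another tested probe, that probe was called the same way for 164 of 189 genes that were higher (86.8%) and 207 of 259 that were lower (79.9%).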

How the data were processed

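RNA was hybridised in Cy5 against a common reference RNA in Cy3 on 2-colour Agilent arrays, with no dye swap. The deposited intensities, and the log10 ratio used as an alternative, are the scanner output of Agilent Feature Extraction 9.1.3.1, per the file headers. The authors' value table is treated as a score, because its scale, a log ratio that matches the scanner's ratio in another base, and its time labels are not settled, and it was used only as an alternative. The authors' deposited flags were used for background and outliers.

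Background was corrected with normexp (offset 50) and log2 ratios were normalised by loess within each array in limma 3.58.1 (R 4.3.3, statmod 1.5.0), with control spots at weight 0 and 333 outlier spots left out. Spots of a probe were averaged, and the brightest probe stood for a gene. Testing required a Cy5 signal well above background on every array of 1 or more of the 8 groups. All 24 arrays entered 1 fit with 8 group means, since this shares the estimate of the spread, and p-values were adjusted by Benjamini-Hochberg over 13486 genes or features, of which 1442 had no chromosome and 389 lay on X or Y. Probes were named through RefSeq by accession (22951), symbol (6659) or synonym (3109), and 8455 kept the file's name. Promoters are RefSeq's, from GRCm38.p6. The code was tested on simulated data. The number of arrays limits the precision. The labels call the replicates biological and do not say which cultures or embryos they came from, so p-values measure the spread between these samples.

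The comparison and the gene lists were chosen with earlier results of these data known. Genes were named by rule: the 12 highest and 12 lowest called genes without overlap, up to 4 called members of largest difference in each of 39 lists with defining members that did not pass, and Stub1, Trp53, Daxx, Hspa1a, Hspa8 and Hsf1. Acta2, Adgre1, Aldh1l1, Asns, Atf4, Bcan, Bmp4, Cdkn1a, Chac1, Csf1r, Gja1, Id2, Lamp1, Ntrk2, Pttg1, Sqle and Stat2 were named after their values were seen, and 2 lists (astrocyte and radial glia, cornified envelope) were added then. Some items the rule would name are not reported here. Alternatives were another offset, median centring, the scanner software's ratio, other filters and probe rules, the 6 arrays alone, slide and replicate blocks, and leaving out each array.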

Additional observations from a re-analysis of the deposited data

Results flagged for a closer look

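The difference between the time labels was itself different in the wildtype and the CHIP null for 2198 autosomal genes, by the interaction term of the limma fit. Those named in the report are given as the log2 wildtype difference minus the log2 CHIP null difference, each at an adjusted p under 0.05. Time label and scan set cannot be told apart in either genotype, but both genotypes were in each scan set. No slide held controls of both genotypes, so genotype and slide cannot be told apart among the controls.

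Among chemokines, the receptor Il1rl1 and interferon genes the wildtype minus CHIP null difference was 2.47 for Il1rl1, 1.41 for Ccl2, 1.17 for Ccl7, 1.49 for Cxcl5, 1.78 for Bst2, 1.49 for Isg15, 1.68 for Rtp4, 0.94 for Irf9, 0.55 for Stat2 and -0.76 for H2-K1. For sterol, amino acid stress and endoplasmic reticulum genes it was 0.51 for Idi1, 0.43 for Msmo1, 0.55 for Elovl6, 0.39 for Mthfd2, 0.47 for Stc2, 0.61 for Cebpb and 0.46 for Hspa5. Cell cycle genes gave 0.75 for Ccnb1, 0.41 for Mad2l1, 0.49 for Mki67, 0.68 for Uhrf1, 0.39 for Mcm4, 0.68 for Tyms, -0.23 for Pttg1, -0.75 for Ccnd2 and -1.03 for Pmaip1. Neural genes gave -3.27 for Ncan, -2.68 for Fabp7, -2.63 for Mlc1, -1.71 for Ckb, -1.45 for Ntrk2, -1.19 for Bcan, -1.03 for Aldh1l1, -0.96 for Gfap, -0.57 for Olig1 and 0.89 for Gja1. Macrophage genes gave -2.21 for Marco, -1.73 for Lyz2, -1.38 for Lyz1 and -0.50 for Adam8. Contractile genes gave -1.27 for Cnn1, -0.80 for Myl9, -0.60 for Tpm2, -0.55 for Acta2 and -0.34 for Csrp1. Mesothelial, muscle and positional genes gave 1.89 for Msln, 0.89 for Upk3b, 0.88 for Krt18, 1.01 for Myl4, 0.86 for Chrna1, 0.67 for Myog, 1.01 for Hoxd13, 1.06 for Pitx1, 0.80 for Twist2, 0.60 for Foxf2 and -0.74 for Msx2. Matrix and signalling genes gave 2.69 for Mmp3, 2.20 for Dcn, 1.84 for Lum, -0.58 for Fn1, -0.33 for Col1a1, -0.42 for Col1a2, -0.73 for Col4a1, -1.50 for Col7a1, 0.84 for Bmp4, 0.75 for Id1 and -1.68 for Igfbp2. Detoxification, lysosome and small heat shock protein genes gave -2.13 for Gstm1, -1.12 for Hmox1, -0.87 for Gstm2, -0.84 for Aldh1a1, -0.75 for Ctsd, -0.75 for Ctsh, -0.54 for Psap, -0.47 for Lamp1, -1.74 for Hspb8, -1.37 for Cryab and -0.87 for Hspb1. The remaining genes gave 2.49 for Penk, 1.26 for Errfi1, 1.05 for Serpina3g, -1.07 for Hey1, -1.0 for Tgm2, -1.64 for Wdfy1, -0.99 for Lce1f and -0.49 for Cox4i1.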

How the results depend on the processing

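Under the alternatives run, 94 of 99 recomputed counts of calls stayed within 1.5 times their value. Of the counts over gene lists 83 moved by more than that and 1147 did not, and 18 autosome medians moved and 20 did not. With median centring 2684 genes were called lower in the wildtype and 699 for the difference between genotypes. With the scanner software's log ratio 2692 were lower, 2341 passed with a change over 1.5-fold and 2717 passed in the CHIP null. The cause was not tested. Leaving out 1 wildtype array at a time gave 6783 to 7117 genes called. Arrays of the same replicate number deviated together at 0.142, -0.067 and 0.054, and those of unlike numbers at -0.17 to 0.123. With 3 arrays per label these values cannot show whether the numbers pair the samples. The fit with the replicate number as a block called 7483 genes. With the value table under its own labels 5518 genes were called, 2682 higher and 2836 lower. Its columns match the files of the other time label, so higher and lower there are turned against the other counts.

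Under the labels of the authors' value table every direction given for the wildtype controls would turn. Under the other alternatives only small differences turned sign among the genes named. With an offset of 10 these were Stub1 (0.018), Col1a1 (0.094) and Col1a2 (0.075). With median centring they were the gene Stub1 (0.329), Daxx (0.249), Hspa1a (0.046), Hspa8 (0.338), Hsf1 (0.043), Col1a1 (0.494), Col1a2 (0.354) and Nqo1 (0.051). With the scanner software's ratio they were Stub1 (0.017), Daxx (0.089) and Hspa1a (0.007), and with the median over probes Trp53 (0.127) and Hsf1 (0.057). The replicate block gave 0.004 for Col1a2 and the slide as a random block 0.004 for Nqo1. Leaving out 1 array at a time gave -0.04 to 0.019 for the gene Stub1, -0.038 to 0.005 for the gene Col1a1, -0.111 to 0.067 for the gene Col1a2 and -0.132 to 0.070 for the gene Nqo1.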
